A study of Homo sapiens with 12 samples.

Results

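Silver nanoparticles and DOC, each given alone to PC3 cells, were set directly against each other here, gene by gene. PC3 is an established human prostate cancer line that grew out of a bone metastasis. The comparison uses 6 of the 12 sequenced libraries, chosen by their treatment labels: 3 from cells given silver nanoparticles (AgNPs) and 3 from cells given DOC. All libraries come from cells labelled WT, and 3 libraries from cells given PBS (BLANK) show on which side of PBS cells a level lies. The BLANK libraries and the 3 libraries of the combined treatment (COM) also entered the shared fit and its estimate of the spread. COM is otherwise not described. The labels give DOC as an abbreviation only, name no dose, exposure time, particle size or batch, and do not say that replicates were separate cultures. Each p-value below therefore measures the spread between these libraries, which may be technical.

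Silver ions released from particles bind to the thiol groups of cysteines. Cells answer thiol-reactive metals through several sensors: MTF1 switches on metallothioneins, NRF2 switches on glutathione and NADPH enzymes, HSF1 switches on chaperones, and kinases of eIF2α raise the transcription factor ATF4. Dividing cells separately raise a set of mitotic genes in the G2 phase, which falls when fewer cells reach division.

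Counts on linear transcripts ran from 13049868 to 13362290 per AgNPs library and from 18603100 to 19421873 per DOC library, so the AgNPs libraries were shallower. In a principal component analysis of these 6 libraries the treatments lay apart on component 1 (42.1% of the variance), and AgNPs replicate 1 lay apart from the other AgNPs libraries on component 2 (16.8%). DOC replicate 1 differed from the other DOC libraries by more than they did from each other, with a chi-square per degree of freedom of 4.48 and 4.81, against 1.71 between DOC replicates 2 and 3 and 1.68 to 1.99 within AgNPs. The epithelial keratins KRT8 and KRT18 and the prostate homeobox gene HOXB13 were well expressed in both groups, and HOXB13 averaged 298 ± 2.60 CPM (counts scaled to a common library size, SD, n = 3) after AgNPs and 305 ± 7.52 CPM after DOC. EPCAM, an epithelial surface protein, averaged 10.2 ± 0.238 CPM after AgNPs and 10.9 ± 0.654 CPM after DOC.

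The transcriptomes of the treatments differed widely but mostly by little. Of 19986 genes tested, 5120 (25.6%) passed an adjusted p of 0.05, 2739 (13.7%) higher after AgNPs than after DOC and 2381 (11.9%) lower. Among protein-coding genes the shares were 18.4% higher and 14% lower. Each list count below is to be read beside these shares. The median size of the difference among the genes that passed was 0.27 on the log2 scale. Large differences lay mostly on one side: 269 genes (1.35%) were at least 2-fold higher after AgNPs and 121 (0.605%) at least 2-fold lower, and at 4-fold the counts were 77 and 11. Of the 121 lower genes, 111 (91.7%) had an average log2 CPM below 1, against 138 of the 269 higher genes (51.3%), so the lower ones were nearly all weakly expressed. A set of limits was used to pick the genes described singly. They were average log2 CPM not below 1, mostly RefSeq counts, and a gene symbol other than a clone name or a LOC or LINC number. Replicates of the groups also had to show no overlap, as held for 37.6% of all genes. Within these limits, 105 genes were at least 2-fold higher and 5 at least 2-fold lower. The median difference over all genes was -0.01. Without DOC replicate 1 there were 5333 calls, and without AgNPs replicate 1 there were 4253. With only the 6 AgNPs and DOC libraries in the fit there were 4708 calls among 18944 genes.

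**Figure D1:**
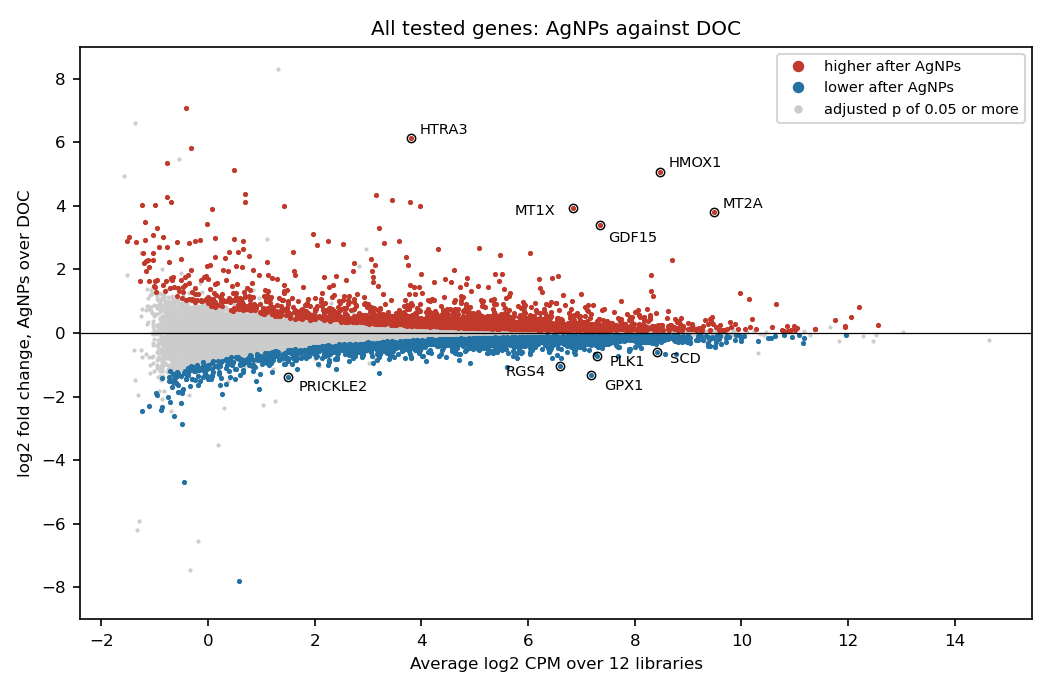
Each point is 1 of 19986 tested genes, with its average log2 CPM over 12 libraries on the x axis and its fitted log2 fold change of AgNPs over DOC on the y axis. Red genes were higher after AgNPs, blue genes lower and grey genes did not pass an adjusted p of 0.05. Large values at the left edge come from genes with few counts, where a fitted value against a group with no counts has no firm size. HTRA3, HMOX1, MT1X, MT2A and GDF15 stand far above 0, while well expressed genes on the lower side, such as GPX1 and RGS4, lie much nearer to it.

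Within those limits, the 15 genes that stood highest after AgNPs over DOC were HTRA3, HMOX1, NMRAL2P, AKR1B10, INHBE, FGF21, MT1X, MT2A, GDF15, AKR1C1, S100P, CLIP4, HSPA6, OSGIN1 and CHAC1. HTRA3, a secreted serine protease (chromosome 4, 8269754 to 8307098), had 27.6, 28.1 and 29.2 CPM in the 3 AgNPs libraries, against 0.533, 0.412 and 0.256 CPM in the 3 DOC libraries. The DOC values lie near the floor of 3 counts, so the fitted difference of 6.12 ± 0.15 (log2 ± SE, adjusted p = 4.04e-28) rests on few DOC reads. S100P, a calcium-binding protein of many carcinomas, had 8.64, 8.90 and 9.58 CPM after AgNPs, against 1.49, 1.18 and 0.921 CPM after DOC. S100P differed by 2.91 ± 0.17 (adjusted p = 1.32e-16). CLIP4, a protein of the family that binds growing microtubule ends, differed by 2.82 ± 0.12. NMRAL2P, a transcribed pseudogene, differed by 4.34 ± 0.15 and is also uncertain because of its parent gene. With HTRA3 and S100P, they are the genes of this group that are not described with a pathway below.

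**Figure D2:**
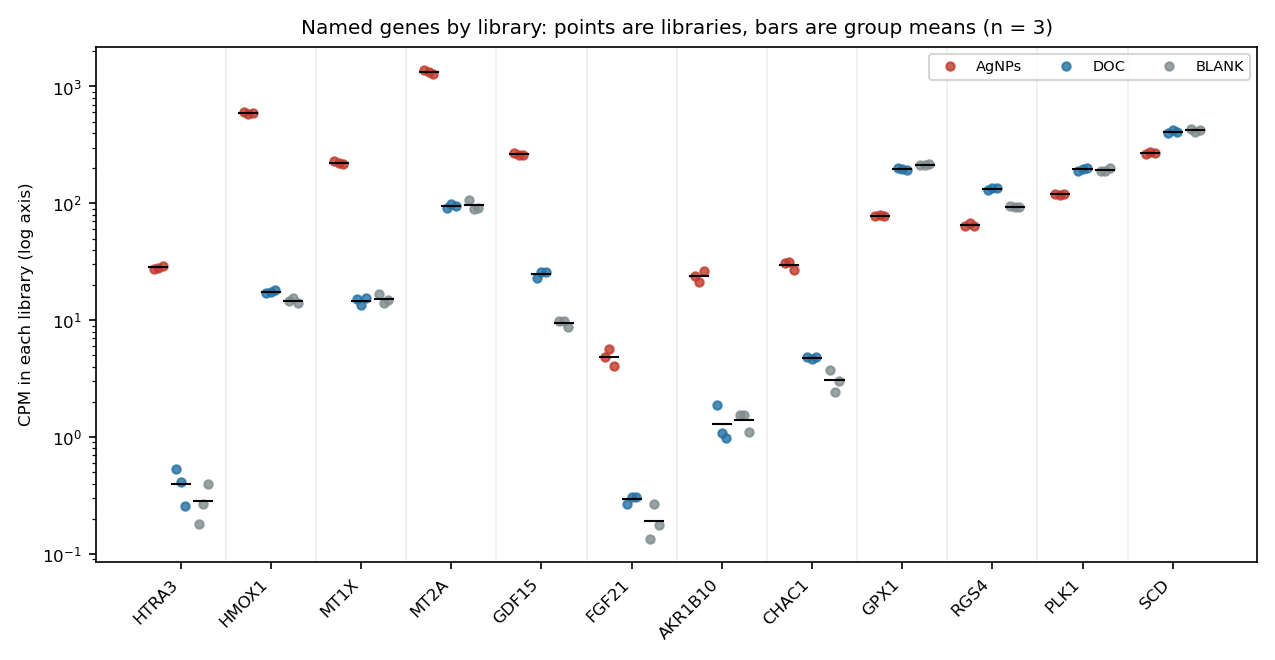
Points are the CPM of single libraries on a log axis, with AgNPs left, DOC in the middle and BLANK right for each gene, and bars are the means of 3 libraries. HTRA3 to CHAC1 lie clear above both other groups after AgNPs, with DOC near BLANK for the metallothioneins and above it for GDF15. GPX1, PLK1 and SCD lie below both, and RGS4 has AgNPs below and DOC above BLANK.

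Metallothioneins, small cysteine-rich proteins that hold zinc, copper and other metal ions, stood far higher after AgNPs than after DOC. MT2A (chromosome 16, 56608584 to 56609497) had 1373, 1333 and 1277 CPM in the AgNPs libraries, against 90.9, 99.2 and 95.1 CPM in the DOC libraries. MT1X (chromosome 16, 56682470 to 56684196) had 231, 220.0 and 217 CPM after AgNPs, against 15.1, 13.5 and 15.3 CPM after DOC. The folds were 13.96 for MT2A (3.80 ± 0.07 on the log2 scale, adjusted p = 6.56e-11) and 15.2 for MT1X (3.93 ± 0.05, adjusted p = 3.44e-36). DOC left both near PBS cells, at -0.02 ± 0.07 and -0.06 ± 0.07 against BLANK (adjusted p = 0.917 and 0.647), values that did not pass. Counts of either gene are uncertain because the metallothionein paralogs are near identical in sequence. SLC30A1, which exports zinc from the cell and is a classic MTF1 target, was 2.44-fold higher after AgNPs (108 ± 3.26 CPM after AgNPs and 44.1 ± 2.38 CPM after DOC). SLC39A10, a zinc importer, was 1.63-fold lower (38.0 ± 0.740 CPM after AgNPs and 62.0 ± 1.38 CPM after DOC). MTF1 itself, the metal sensor, averaged 55.2 ± 2.16 CPM after AgNPs and 53.1 ± 2.01 CPM after DOC and did not pass the test (adjusted p = 0.467). Of the 5 tested genes of metallothioneins and zinc handling, 3 were thus higher (13.7% of all genes were), 1 lower and 1 did not pass, with a median of 1.29. MT1B, MT1E and MT1G had too few counts to be tested.

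The promoters of MT2A and MT1X are printed because MTF1 acts on metallothioneins through the metal response element. Letters TGCACNC and TGCGCNC, the core of that element, were searched on either strand in the 250 bases before and 50 bases after the RefSeq start (GRCh38.p14), and matches stand in capitals. MT2A (chr16:56608334-56608633, plus strand) holds 8 matches and MT1X (chr16:56682220-56682519, plus strand) holds 4. Here and below, shares of promoters count 1 promoter per gene, that of the first start listed, and other starts can differ. Of these 27305 promoters, 29.35% hold at least 1 match, 162 (0.593%) hold at least 4 and 6 (0.022%) at least 8. At least 1 match stood in 5 of the 11 promoters found for the 15 genes highest after AgNPs. It also stood in 6 of the 14 found for the 15 lowest, and in 16 of the 27 found for kinetochore, checkpoint and cytokinesis genes. A match shows these letters only, not binding.
MT2A: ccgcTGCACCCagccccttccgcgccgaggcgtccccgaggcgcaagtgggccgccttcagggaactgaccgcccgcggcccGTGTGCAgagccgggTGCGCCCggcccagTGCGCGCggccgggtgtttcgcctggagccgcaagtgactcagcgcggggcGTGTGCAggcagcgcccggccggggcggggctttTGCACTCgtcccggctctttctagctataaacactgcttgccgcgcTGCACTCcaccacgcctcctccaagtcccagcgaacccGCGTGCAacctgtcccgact
MT1X: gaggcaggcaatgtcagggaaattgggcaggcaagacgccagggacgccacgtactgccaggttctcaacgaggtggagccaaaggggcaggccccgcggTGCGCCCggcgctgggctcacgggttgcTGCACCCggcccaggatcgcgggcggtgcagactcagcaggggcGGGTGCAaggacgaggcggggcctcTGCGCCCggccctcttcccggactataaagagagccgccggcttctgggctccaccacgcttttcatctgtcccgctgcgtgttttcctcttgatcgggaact

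Most of the tested genes of heme breakdown and iron handling were higher after AgNPs. HMOX1, which cuts heme into biliverdin, carbon monoxide and iron (chromosome 22, 35381096 to 35394207), had 610.2, 582 and 590.3 CPM in the AgNPs libraries, against 17.1, 17.3 and 18.2 CPM in the DOC libraries. That is 33.9-fold (5.08 ± 0.04, adjusted p = 6.65e-44). The next step of the pathway, biliverdin reductase BLVRB, was 2.04-fold higher. FECH, which inserts iron into protoporphyrin in the last step of heme synthesis, was 1.85-fold higher. The heme transporter SLC48A1 had 67.1 ± 3.07 CPM after AgNPs and 31.0 ± 1.38 CPM after DOC, a difference of 1.11 ± 0.05. FTH1 and FTL, the subunits of the iron store ferritin, averaged 5777 ± 188 and 1426 ± 41.0 CPM after AgNPs, against 3248 ± 52.3 and 679.7 ± 24.0 CPM after DOC (0.83 ± 0.02 and 1.07 ± 0.04). The constitutive heme oxygenase HMOX2 (33.7 ± 1.63 CPM after AgNPs, 33.9 ± 0.966 CPM after DOC) and the iron importer SLC11A2 (44.1 ± 3.34 and 44.7 ± 2.89 CPM in the same order) did not pass. Of 15 tested genes 9 were higher, none was lower and 6 did not pass, with a median of 0.71.

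Glutathione is the main soluble thiol of the cell, and its supply depends on cystine uptake. SLC7A11, the cystine and glutamate exchanger, had 485, 481 and 484 CPM after AgNPs, against 126, 144 and 142 CPM after DOC, 3.52-fold (1.82 ± 0.04, adjusted p = 4.55e-27). The subunits of the rate-limiting ligase, GCLM and GCLC, were 3.31-fold and 1.92-fold higher. CHAC1, which breaks glutathione down, had 30.7, 31.7 and 27.1 CPM after AgNPs, against 4.85, 4.68 and 4.81 CPM after DOC, so synthesis and breakdown genes were both higher. SLC1A4, a transporter of neutral amino acids, differed by 1.69 ± 0.07. The efflux pumps of glutathione conjugates ABCC3 and ABCC2 differed by 1.27 ± 0.05 and 1.11 ± 0.16, whereas the related pump ABCC4 was lower (-0.30 ± 0.05). GGCT, which acts on gamma-glutamyl amino acids from glutathione breakdown, was lower (-0.30 ± 0.06, adjusted p = 1.25e-04). Of the 18 tested genes of cystine uptake and glutathione, 13 were higher, 1 was lower and 4 did not pass, with a median of 0.64. ABC drug efflux genes, counted as a separate list, gave 3 of 7 higher, 1 lower and 3 not passing (median 0.07). In that list 2 were higher with DESeq2, and 2 were lower at equal depth. ABCB1, the classic drug efflux pump, averaged 0.557 ± 0.234 CPM after AgNPs and 0.852 ± 0.346 CPM after DOC, near the floor and with 13.3% of its counts on RefSeq rows, and did not pass (adjusted p = 0.315).

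Enzymes under NRF2 that reduce quinones and aldehydes or make NADPH were higher after AgNPs in 17 of 18 tested genes, with a median of 0.83, and 1 did not pass. The core TGACNNNGC of the antioxidant response element, searched in the same way, stood in 3 of the 14 promoters found for these enzymes (21.4%). Of all promoters 13.6% hold it. The aldo-keto reductase AKR1B10 had 23.7, 21.3 and 26.2 CPM in the AgNPs libraries, against 1.86, 1.08 and 0.972 CPM in the DOC libraries. ALDH3A1, an aldehyde dehydrogenase, had 719, 744 and 723 CPM after AgNPs, against 150.5, 147 and 151 CPM after DOC. AKR1B10 and ALDH3A1 differed by 4.18 ± 0.14 and 2.28 ± 0.03. AKR1C1, uncertain because of its close paralogs, differed by 3.32 ± 0.13, OSGIN1, an oxidative stress growth inhibitor, by 2.68 ± 0.07, NQO1, the quinone reductase, by 1.16 ± 0.03, and UGDH, which makes UDP-glucuronate, by 1.02 ± 0.04. In the thioredoxin system TXNRD1, the reductase that recharges thioredoxin and a selenoprotein, had 1336, 1395 and 1416 CPM after AgNPs, against 579, 583 and 584 CPM after DOC (1.25 ± 0.03). SRXN1, which repairs overoxidised peroxiredoxins, differed by 1.21 ± 0.04, and thioredoxin TXN and the cytosolic peroxiredoxin PRDX1 by 0.34 ± 0.04 and 0.39 ± 0.04. The mitochondrial peroxiredoxin PRDX3 and the peroxiredoxin of the endoplasmic reticulum PRDX4 were lower (-0.15 ± 0.04 and -0.17 ± 0.04), though PRDX3 did not pass without AgNPs replicate 1 (adjusted p = 0.108). That system had 7 of 13 genes higher, 2 lower and 4 not passing, with a median of 0.20.

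Selenoproteins, which carry selenocysteine in their active site, did not move as 1 group. GPX1, the peroxidase that clears hydrogen peroxide with glutathione (chromosome 3, 49357176 to 49358353), had 77.4, 79.0 and 78.0 CPM in the AgNPs libraries, against 199, 195 and 193 CPM in the DOC libraries. It was 2.50-fold lower (-1.32 ± 0.03, adjusted p = 4.55e-27). SELENOW, a small thioredoxin-like protein, had 19.1, 16.0 and 16.9 CPM after AgNPs, against 30.9, 31.2 and 31.2 CPM after DOC (-0.84 ± 0.07). SELENOT and SELENON of the endoplasmic reticulum were lower by less (-0.29 ± 0.04 and -0.27 ± 0.04). SEPHS2, which makes the selenium donor for selenocysteine, was higher (0.71 ± 0.04). GPX2, a peroxidase known from gut epithelium and from NRF2 activity, had 10, 14 and 16 counts in the AgNPs libraries and 0 counts in every DOC and BLANK library. Set against a floor of 3 counts over the DOC group, it was at least 19.3-fold higher. Leaving aside TXNRD1, which was counted with the thioredoxin system, of 17 tested selenoproteins 4 were higher, 6 lower and 7 did not pass, with a median of -0.04, which does not depend on the size given to GPX2. With DESeq2 only 2 were higher.

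**Figure D3:**
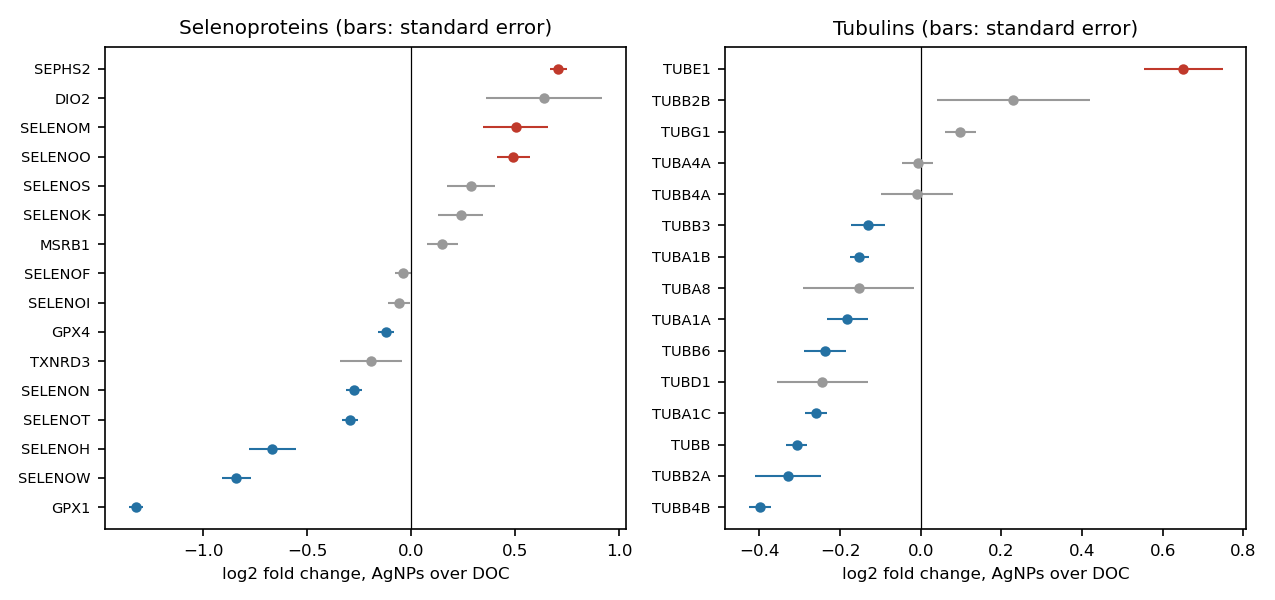
Points are log2 fold changes of AgNPs over DOC with the standard error of the fit as bars, red for higher, blue for lower and grey for not passing an adjusted p of 0.05. Selenoproteins, without GPX2 that had no DOC counts, spread from GPX1 at -1.32 to SEPHS2 at 0.71, while 8 of 15 tubulins are blue and TUBE1 alone is red. TXNRD1, also a selenoprotein, is counted with the thioredoxin system and not drawn.

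Genes of the ATF4 pathway, by which cells answer amino acid shortage and stress of protein synthesis, were higher after AgNPs. ATF4 itself had 319, 315 and 327 CPM after AgNPs, against 199, 189 and 188 CPM after DOC (0.74 ± 0.03). ATF3, a stress-induced transcription factor of the same family, had 59.2, 56.7 and 53.5 CPM after AgNPs, against 15.7, 15.9 and 15.2 CPM after DOC (1.85 ± 0.06, adjusted p = 2.12e-24). In ATF3 the DOC libraries also lay above the BLANK mean of 7.12 ± 0.221 CPM, so it was higher than PBS after either treatment and furthest after AgNPs. DDIT3, the proapoptotic factor CHOP, was 2.84-fold higher. TRIB3, a pseudokinase that dampens ATF4, differed by 1.43 ± 0.04, PPP1R15A, which reverses eIF2α phosphorylation, by 1.80 ± 0.05, CEBPB by 1.86 ± 0.06 and the stress cofactor NUPR1 by 1.97 ± 0.07. Among the kinases upstream, EIF2AK1 and EIF2AK4 averaged 110.5 ± 2.59 and 91.7 ± 2.84 CPM after AgNPs, against 111 ± 5.20 and 92.8 ± 2.16 CPM after DOC, and did not pass. In total 11 of 15 were higher, none was lower and 4 did not pass, with a median of 0.74.

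Secreted stress signals showed the highest median of the lists described here, 2.80, with all 6 tested genes higher after AgNPs. GDF15, a cytokine released by stressed cells that acts on the brainstem to lower appetite (chromosome 19, 18386158 to 18389176), had 271, 258 and 258 CPM after AgNPs, against 23.1, 25.8 and 25.6 CPM after DOC. FGF21, a metabolic hormone, had 4.81, 5.71 and 4.06 CPM after AgNPs, against 0.266, 0.309 and 0.307 CPM after DOC, the DOC values near the floor of 3 counts. INHBE, an inhibin subunit, had 29.9, 26.9 and 28.1 CPM after AgNPs, against 1.28, 2.06 and 1.53 CPM after DOC. GDF15, FGF21 and INHBE differed by 3.40 ± 0.04, 4.01 ± 0.27 and 4.11 ± 0.14. The vasodilator peptide ADM2 (2.19 ± 0.13), STC2, a secreted glycoprotein (2.01-fold), and the angiogenic factor VEGFA (0.92 ± 0.05) were higher as well. GDF15 was also higher after DOC than in PBS cells, at 1.39 ± 0.06 against BLANK (adjusted p = 1.07e-17), while AgNPs stood at 4.79 ± 0.05.

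The promoters of CHAC1 and ATF3 are shown because ATF4 acts with C/EBP factors through a composite element, whose core TGATGNAA was searched on both strands and stands in capitals. CHAC1 (chr15:40953221-40953520, plus strand) and ATF3 (chr1:212565157-212565456, plus strand, the first start listed for the gene) hold 1 match each, 209 and 191 bases before the start. The promoter of the other start listed for ATF3 (chr1:212614768-212615067, plus strand) holds no match. Of all promoters 3.67% hold the core, and 3 of the 11 promoters found for the 15 genes highest after AgNPs hold it.
CHAC1: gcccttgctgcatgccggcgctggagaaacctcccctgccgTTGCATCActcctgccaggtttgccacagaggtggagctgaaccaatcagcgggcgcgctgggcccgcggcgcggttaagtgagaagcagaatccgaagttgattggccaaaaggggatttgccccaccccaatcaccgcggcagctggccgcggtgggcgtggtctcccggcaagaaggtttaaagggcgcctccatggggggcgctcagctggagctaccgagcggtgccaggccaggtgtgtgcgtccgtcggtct
ATF3: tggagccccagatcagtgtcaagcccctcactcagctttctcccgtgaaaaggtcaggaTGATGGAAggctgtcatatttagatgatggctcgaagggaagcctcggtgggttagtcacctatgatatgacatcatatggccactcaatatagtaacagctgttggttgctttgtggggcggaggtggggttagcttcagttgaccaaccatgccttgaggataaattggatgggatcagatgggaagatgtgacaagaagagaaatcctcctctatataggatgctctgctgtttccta

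Genes that restrain mTORC1, make amino acids or charge tRNAs, many of them known ATF4 targets, were higher more often than lower. SESN2, a leucine sensor that inhibits mTORC1, had 98.8, 105 and 96.7 CPM after AgNPs, against 17.1, 15.9 and 19.3 CPM after DOC (2.52 ± 0.05), and DDIT4 had 93.0, 94.6 and 100.4 CPM after AgNPs, against 29.4, 29.6 and 30.4 CPM after DOC (1.69 ± 0.05). Both also stood above BLANK after DOC (0.62 ± 0.07 and 0.94 ± 0.06). Of 9 tested sestrins and mTORC1 inhibitors 4 were higher, DEPTOR was lower (-0.36 ± 0.12) and 4 did not pass, with a median of 0.06. The call of DEPTOR was lost without any single AgNPs library or DOC replicate 2, with DESeq2 (adjusted p = 0.0914) and on RefSeq rows only (0.103). SESN1, a relative known as a p53 target, averaged 6.76 ± 0.592 CPM after AgNPs and 6.94 ± 0.958 CPM after DOC and did not pass. Among genes of amino acid synthesis 9 of 15 were higher, 1 was lower and 5 did not pass (median 0.23). ASNS, which makes asparagine, was 2.35-fold higher, and PSAT1 and PHGDH, which make serine, differed by 0.72 ± 0.04 and 0.67 ± 0.03. CBS, of the path from homocysteine to cysteine, averaged 37.4 ± 0.582 CPM after AgNPs and 18.02 ± 1.75 CPM after DOC, on opposite sides of BLANK at 25.6 ± 2.35 CPM. ALDH18A1, of proline synthesis, was lower (-0.24 ± 0.03). Of 20 cytosolic aminoacyl-tRNA synthetases 13 were higher, led by GARS1 (0.63 ± 0.03), AARS1 (0.56 ± 0.03) and SARS1 (0.52 ± 0.03), while KARS1 was lower (-0.16 ± 0.03). VARS1 was lower too (-0.10 ± 0.03), a call lost without AgNPs replicate 1 (adjusted p = 0.111) or replicate 2 (0.123). The other 5 did not pass and the median was 0.18.

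Chaperones of the cytosol were higher after AgNPs in 19 of 25 tested genes, most by a small amount (median 0.18), with 1 lower and 5 not passing. HSPA6, a strictly stress-induced HSP70 (chromosome 1, 161524540 to 161526894), had 12.2, 13.5 and 13.02 CPM after AgNPs, against 2.40, 1.44 and 1.74 CPM after DOC. CRYAB, a small heat shock protein, had 2.40, 2.82 and 2.99 CPM after AgNPs, against 0.373, 0.360 and 0.358 CPM after DOC. HSPA6 and CRYAB differed by 2.80 ± 0.16 and 2.88 ± 0.32. The inducible HSP70 gene HSPA1A, uncertain because HSPA1B is nearly identical, differed by 0.70 ± 0.04, its cochaperone DNAJB1 by 0.58 ± 0.03, and HSPB8 by 0.83 ± 0.06. HSF1, the regulator of these genes, was slightly lower (-0.11 ± 0.03, adjusted p = 0.00187), and the cochaperone CHORDC1 did not pass (-0.02 ± 0.06). A share of 15.4% of CHORDC1 counts lies on RefSeq rows, and on those rows alone it was higher by 0.70. Without DOC replicate 1 it was lower instead (-0.10, adjusted p = 0.0118). In the endoplasmic reticulum 9 of 20 chaperone and unfolded protein genes were higher, 1 was lower and 10 did not pass (median 0.08), with HERPUD1, of protein degradation there, at 0.96 ± 0.04, XBP1 at 0.72 ± 0.05 and the chaperone HSPA5 at 0.29 ± 0.03. HSPA5 averaged 579 ± 7.75 CPM after AgNPs and 474 ± 12.2 CPM after DOC, with BLANK between them at 541 ± 8.41 CPM. PDIA6, a disulfide isomerase, was lower (-0.13 ± 0.03).

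HSPA6 is shown because HSF1 acts on heat shock genes through the heat shock element. The triplets GAA, TTC and GAA, with NN between neighbours, were searched on both strands, and the match, 74 bases before the start, stands in capitals (chr1:161524290-161524589, plus strand). These letters occur in 5 of the 23 promoters found for cytosolic heat shock genes (21.7%), against 0.487% of all promoters.
HSPA6: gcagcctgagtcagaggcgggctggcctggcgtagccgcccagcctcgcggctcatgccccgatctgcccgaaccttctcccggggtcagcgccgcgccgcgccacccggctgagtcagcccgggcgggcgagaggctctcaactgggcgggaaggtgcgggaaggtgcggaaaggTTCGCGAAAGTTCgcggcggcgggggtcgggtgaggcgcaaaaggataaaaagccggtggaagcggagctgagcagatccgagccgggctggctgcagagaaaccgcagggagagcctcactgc

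Genes of protein disposal were mostly on the higher side as well. All 20 proteasome subunits that passed, of 31 tested, were higher after AgNPs, such as PSMA1 (0.34 ± 0.04) and PSMB4 (0.30 ± 0.03), 11 did not pass, and the median of the list was 0.16. Against BLANK the same list had 12 higher and none lower after AgNPs, and none higher and 13 lower after DOC (14.9% and 16% of all genes were higher and lower after AgNPs, 7.16% and 9.81% after DOC). SQSTM1, the autophagy receptor p62, had 427, 424 and 427 CPM after AgNPs, against 174, 169 and 171 CPM after DOC (1.31 ± 0.03). Of 21 autophagy genes 10 were higher, among them the ATG8 relatives GABARAPL1 (1.85 ± 0.09) and MAP1LC3B (0.64 ± 0.04) and the starter kinase ULK1 (0.99 ± 0.05), ATG16L1 was lower (-0.21 ± 0.05) and 10 did not pass (median 0.18). Of 27 lysosomal genes 12 were higher, with the galactosidase GLA at 1.05 ± 0.06 and the transcription factor TFE3 at 0.82 ± 0.04, and 15 did not pass (median 0.12). Without DOC replicate 1, 2 autophagy genes and 2 lysosomal genes were lower.

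Signalling genes split by gene rather than by list. FOS, the fast-induced AP-1 subunit, had 8.04, 6.92 and 7.28 CPM after AgNPs, against 3.41, 3.14 and 4.50 CPM after DOC (1.01 ± 0.14), both far above the BLANK mean of 1.03 ± 0.0458 CPM. DUSP1, a phosphatase that ends MAP kinase signals, and ZFP36, which speeds the decay of cytokine mRNAs, differed by 1.14 ± 0.07 and 1.04 ± 0.10. MYC, the growth factor-driven transcription factor, had 622, 583 and 576 CPM after AgNPs, against 795, 773 and 777 CPM after DOC, and was lower (-0.40 ± 0.03). Of 21 immediate early genes 9 were higher, 4 lower and 8 did not pass (median 0.18). Among cytokines and NFkB targets 7 of 17 were higher, 4 lower and 6 did not pass (median 0.15), and with DESeq2 4 were higher and 2 lower. Without AgNPs replicate 3 none was lower, and without AgNPs replicate 1 or DOC replicate 2 or 3 only 1 was. The neutrophil attractant CXCL8 averaged 20.1 ± 0.932 CPM after AgNPs and 8.68 ± 0.694 CPM after DOC (1.21 ± 0.09), and IL11 differed by 0.92 ± 0.11. IL1B stood above both other groups after DOC, with 8.52 ± 0.685 CPM after AgNPs, 11.03 ± 0.622 CPM after DOC and 7.16 ± 0.797 CPM in BLANK (-0.37 ± 0.11, adjusted p = 0.00910). Its call was lost without AgNPs replicate 2 or 3 or DOC replicate 2 (adjusted p = 0.062, 0.054 and 0.052) and at equal depth (0.0596). Interferon-induced genes gave 6 higher, 6 lower and 13 not passing of 25 (median -0.03), and 3 higher with DESeq2. The antigen presentation gene HLA-C was higher (0.65 ± 0.15, uncertain because of its close relatives), and the antiviral genes IFIT1, IFIT2 and OASL were lower (-0.71 ± 0.13, -0.48 ± 0.10 and -0.73 ± 0.14).

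On the other side and within the same limits, the 15 genes that stood lowest after AgNPs against DOC were PRICKLE2, GPX1, DCLK1, CTDSP1, RGS4, ATP8A2, SCNN1G, GAS2L3, CRYBB2, CACNA1E, CENPA, STARD8, MBNL3, KCNJ6 and ITGA10, with differences from -1.37 to -0.84. PRICKLE2, of planar cell polarity, had 1.43, 1.14 and 1.69 CPM after AgNPs, against 3.83, 3.19 and 3.99 CPM after DOC. CTDSP1, a phosphatase of RNA polymerase II (chromosome 2, 218396351 to 218405941), had 30.9, 31.4 and 28.3 CPM after AgNPs, against 59.1, 64.0 and 65.5 CPM after DOC (-1.06 ± 0.05, adjusted p = 4.29e-18). RGS4, which shortens G protein signals (chromosome 1, 163068871 to 163076802), had 63.8, 67.7 and 64.0 CPM after AgNPs, against 129.8, 136 and 134 CPM after DOC (-1.03 ± 0.04, adjusted p = 4.74e-22). The lowest genes lay on different sides of PBS cells. CTDSP1 lay at -1.06 ± 0.05 against BLANK after AgNPs and did not pass after DOC (adjusted p = 0.961). RGS4 lay below BLANK after AgNPs (-0.52 ± 0.04) and above it after DOC (0.51 ± 0.03), both past the test. ATP8A2, a phospholipid flippase of neurons, lay at -0.25 ± 0.19 after AgNPs (adjusted p = 0.362, not passing) and 0.73 ± 0.16 after DOC (adjusted p = 0.00117). DCLK1, a microtubule-binding kinase, lay below BLANK after AgNPs (-0.61 ± 0.20) and above it after DOC (0.51 ± 0.16). These values share the BLANK libraries and are given side by side only. The rest were GAS2L3, a linker of actin and microtubules in cytokinesis (-0.94 ± 0.07), the sodium channel subunit SCNN1G (-0.96 ± 0.20), the calcium channel CACNA1E (-0.90 ± 0.24), the potassium channel KCNJ6 (-0.84 ± 0.18), the splicing factor MBNL3 (-0.85 ± 0.12), STARD8 (-0.85 ± 0.16), the collagen receptor ITGA10 (-0.84 ± 0.22) and the crystallin CRYBB2 (-0.94 ± 0.24).

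**Figure D4:**
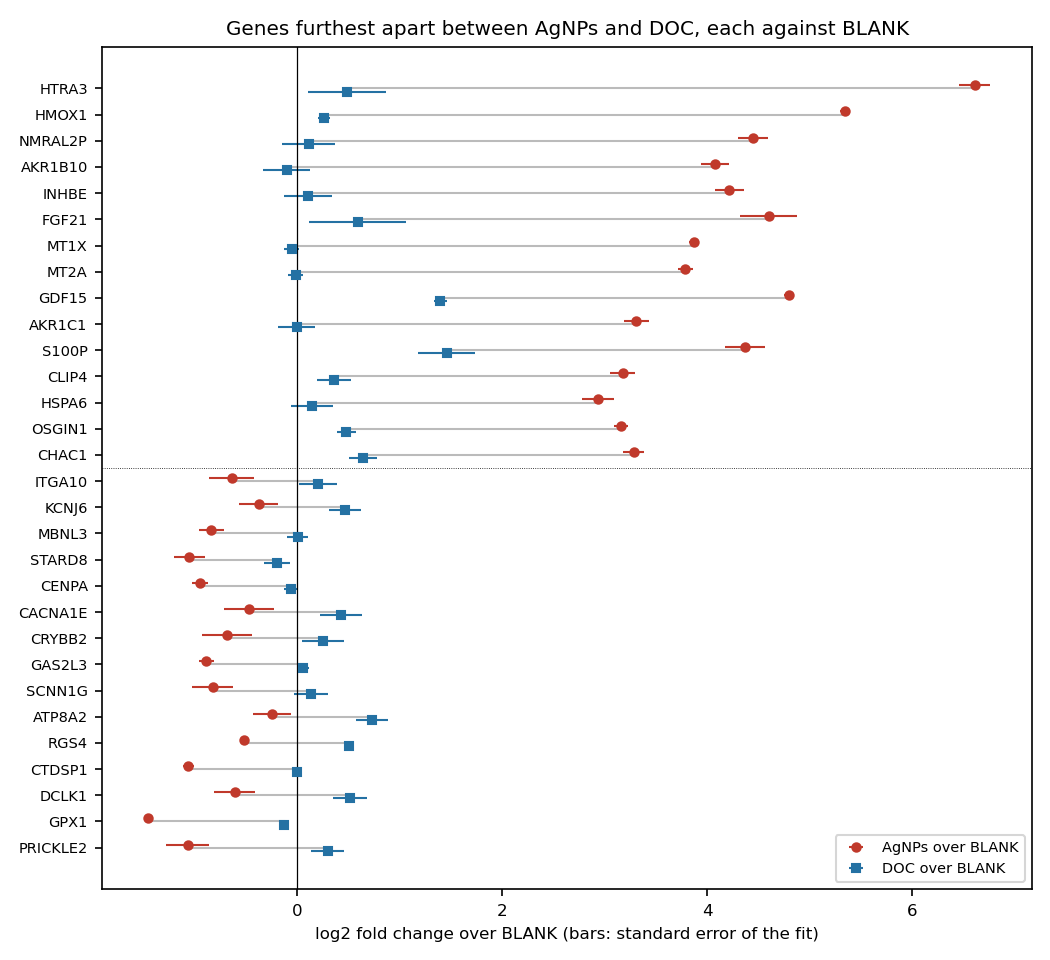
For the 15 genes highest and the 15 lowest after AgNPs against DOC, circles give the log2 fold change of AgNPs over BLANK and squares that of DOC over BLANK, with the standard error of the fit as bars. Above the dotted line most squares lie near 0, with GDF15 and S100P at 1.39 and 1.46, and below it squares of ATP8A2, DCLK1 and RGS4 lie right of 0.

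Cell division genes were lower after AgNPs than after DOC. PLK1, the kinase that drives entry into mitosis (chromosome 16, 23678889 to 23690367), had 119.9, 117 and 121 CPM after AgNPs, against 188, 196 and 202 CPM after DOC (-0.71 ± 0.04, adjusted p = 1.64e-17). MKI67, the Ki-67 antigen of cycling cells, had 339, 333 and 334 CPM after AgNPs, against 551, 506 and 534 CPM after DOC (-0.66 ± 0.03). CENPA, the histone that marks centromeres, had 11.04, 11.3 and 11.1 CPM after AgNPs, against 20.7, 20.6 and 20.5 CPM after DOC (-0.88 ± 0.08). CENPA was chosen among genes without overlap, and the groups did not overlap in PLK1 or MKI67, as in 37.6% of all genes. Of 35 tested genes of kinetochore, checkpoint and cytokinesis 27 were lower (11.9% of all genes were), 1 was higher and 7 did not pass, with a median of -0.24. Among the lower ones were CENPF (-0.66 ± 0.03), CCNB1, the mitotic cyclin (-0.58 ± 0.04), TOP2A (-0.51 ± 0.03) and TPX2, a spindle assembly factor (-0.49 ± 0.03). CENPH, of the inner kinetochore, was the higher one (0.28 ± 0.08, adjusted p = 0.0113). It lost its call without DOC replicate 3 (adjusted p = 0.079), at equal depth (0.138) and with DESeq2 (0.0502). Of 13 mitotic kinesins 10 were lower and 3 did not pass (median -0.30). KIF20A, a motor of cytokinesis, was the furthest (-0.79 ± 0.04), followed by KIF18B (-0.50 ± 0.04), CENPE (-0.48 ± 0.05) and KIF4A (-0.47 ± 0.04), and KIF18A, a relative of KIF18B, averaged 23.3 ± 2.57 CPM after AgNPs and 22.3 ± 1.08 CPM after DOC without passing. Against BLANK, 29 of the 35 kinetochore genes were lower after AgNPs (16% of all genes were) and 9 after DOC (9.81% of all genes were). In bulk RNA, fewer dividing cells and less mitotic RNA per cell cannot be told apart.

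PLK1 and CENPA are shown because genes of late cell cycle share the cell cycle homology region near their start. The letters TTTGAA and TTCGAA were searched on both strands, and the matches, 29 and 18 bases before the start, stand in capitals (PLK1, chr16:23678639-23678938, plus strand, and CENPA, chr2:26785806-26786105, plus strand). They occur in 21 of the 27 promoters found for the kinetochore list (77.8%) and in 10 of 13 for the kinesins (76.9%), against 16.6% of all promoters.
PLK1: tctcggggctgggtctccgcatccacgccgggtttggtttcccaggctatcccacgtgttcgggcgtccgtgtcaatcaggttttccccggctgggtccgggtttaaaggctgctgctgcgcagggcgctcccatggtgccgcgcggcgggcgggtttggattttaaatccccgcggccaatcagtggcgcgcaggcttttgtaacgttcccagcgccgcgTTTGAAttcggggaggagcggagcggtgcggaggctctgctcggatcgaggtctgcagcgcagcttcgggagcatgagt
CENPA: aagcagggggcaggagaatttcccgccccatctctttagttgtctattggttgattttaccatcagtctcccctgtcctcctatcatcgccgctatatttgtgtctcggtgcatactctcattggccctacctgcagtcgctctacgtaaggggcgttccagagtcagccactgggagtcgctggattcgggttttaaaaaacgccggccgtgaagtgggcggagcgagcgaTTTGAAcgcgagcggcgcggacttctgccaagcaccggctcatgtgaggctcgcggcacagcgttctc

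Tubulins, the subunits of microtubules, were lower after AgNPs than after DOC in 8 of 15 tested genes, higher in 1 and not passing in 6, with a median of -0.15. TUBB, a beta-tubulin of dividing cells, had 2020.1, 2041 and 2029 CPM after AgNPs, against 2416, 2574 and 2549 CPM after DOC (-0.31 ± 0.02, adjusted p = 2.57e-12). TUBB4B had 573, 571 and 570.2 CPM after AgNPs, against 786, 735 and 739.9 CPM after DOC (-0.40 ± 0.03). Both genes had BLANK between the treatments, at 2292 ± 17.8 CPM and 714 ± 5.14 CPM. TUBA1A, an alpha-tubulin of neurons, had 46.5, 44.4 and 48.3 CPM after AgNPs, against 50.6, 54.2 and 53.1 CPM after DOC, with BLANK below both at 35.3 ± 0.661 CPM. It differed by -0.18 ± 0.05 (adjusted p = 0.00623), a call lost without AgNPs replicate 2 (adjusted p = 0.075) and at equal depth (0.064). TUBA1B and TUBA1C were lower too (-0.15 ± 0.02 and -0.26 ± 0.03), and TUBE1, the epsilon-tubulin of centrioles, was higher (0.65 ± 0.10). Counts of single tubulin genes are uncertain because the family is near identical in sequence. Their summed level ran from 6080 to 6114 CPM after AgNPs, against 7184 to 7214 CPM after DOC, and the groups did not overlap. Proteins that bind microtubules went both ways, with 4 of 18 higher, 6 lower and 8 not passing (median 0.02), and 3 lower with DESeq2 or without DOC replicate 2 and 2 without AgNPs replicate 1. MAP2 and MAP1B, which stabilise microtubules in neurons, were higher (0.96 ± 0.14 and 0.49 ± 0.03), and CKAP5, which speeds microtubule growth, and STMN1, which binds free tubulin, were lower (-0.30 ± 0.03 and -0.19 ± 0.04).

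DNA replication did not separate the treatments as mitosis did in its counts: 9 of 39 genes were higher, 9 lower and 21 did not pass, with a median of 0.02. Against BLANK the list had 24 genes lower after AgNPs, where 16% of all genes were, and 25 after DOC, where 9.81% of all genes were. The helicase subunit MCM7 was the furthest (-0.73 ± 0.03), with 153, 147 and 154 CPM after AgNPs, against 247, 255 and 249.9 CPM after DOC. The helicase subunits MCM4, MCM5 and MCM6 were lower by less (-0.21, -0.31 and -0.25), as was MCM3 (-0.18 ± 0.04). ORC6, of the origin complex, was higher (0.34 ± 0.06). Replication-dependent histones were higher after AgNPs in 7 of 23 genes, lower in 1 and not passing in 15 (median 0.10), and without DOC replicate 1 the higher ones numbered 14. H4C14 averaged 108 ± 5.77 CPM after AgNPs, 93.2 ± 2.11 CPM after DOC and 123 ± 1.95 CPM in BLANK (0.22 ± 0.04), so DOC cells stood lowest. The lower gene of the list is no histone but SLBP, which binds the end of histone mRNAs (-0.12 ± 0.04, adjusted p = 0.0422). The call of SLBP was lost without any single library but DOC replicate 2 (adjusted p from 0.0905 to 0.164). It was also lost with DESeq2 (0.115), limma-trend (0.0547), only the AgNPs and DOC libraries (0.053) and equal depth (0.0562).

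Inhibitors of the cell cycle kinases were among the genes higher after AgNPs. CDKN1A, the inhibitor p21, had 39.8, 36.8 and 38.4 CPM after AgNPs, against 11.1, 14.46 and 14.02 CPM after DOC (1.54 ± 0.07, adjusted p = 9.41e-19), and both groups stood above BLANK at 9.08 ± 0.549 CPM. CDKN2B, the inhibitor p15, differed by 0.46 ± 0.06. The cyclins CCNA2 and CCND1 and the repressor E2F8 were lower (-0.45 ± 0.05, -0.24 ± 0.03 and -0.77 ± 0.07), as was FOXM1, which drives mitotic genes (-0.25 ± 0.03). Of 22 cyclins, inhibitors and E2F factors 5 were higher, 6 lower and 11 did not pass (median -0.08). PC3 is known to lack functional p53, and of 18 genes known as p53 targets 9 were higher, 2 lower and 7 did not pass (median 0.19), and without AgNPs replicate 1 or 3 none was lower. The higher ones included the death gene PMAIP1 (0.86 ± 0.06), GADD45A (0.44 ± 0.05), the death receptor TNFRSF10B (0.42 ± 0.04) and MDM2 (0.24 ± 0.04), genes that ATF4, CHOP or other factors are also known to raise. Which factors acted on them here was not tested. In the BCL2 family PMAIP1, MCL1 (0.19 ± 0.04) and BBC3 (0.88 ± 0.21) were higher and 11 of 14 did not pass. BBC3 was not called on RefSeq rows alone (adjusted p = 0.699) or at equal depth (0.107). Homologous recombination genes gave 4 higher, 1 lower and 15 not passing of 20 (median 0.05), and none was lower without AgNPs replicate 3. Of all protein-coding genes 18.4% were higher, so the higher counts of this list and of the BCL2 family stood near that share. BRCA1, which repairs double-strand breaks, stood at 0.58 ± 0.06, above BLANK after AgNPs (0.34 ± 0.06) and below it after DOC (-0.24 ± 0.06).

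Lipid synthesis was lower after AgNPs in 19 of 27 sterol and fatty acid genes, with none higher and 8 not passing (median -0.27). SCD, which desaturates fatty acids, had 265, 275 and 268 CPM after AgNPs, against 399.7, 420.4 and 411 CPM after DOC (-0.61 ± 0.03). SQLE, an early enzyme of sterol synthesis, had 43.8, 43.2 and 40.9 CPM after AgNPs, against 60.8, 65.3 and 64.0 CPM after DOC (-0.57 ± 0.05), with BLANK between them at 53.8 ± 1.302 CPM. FASN, the fatty acid synthase, averaged 685 ± 4.94 CPM after AgNPs, 866 ± 11.4 CPM after DOC and 1024 ± 29.6 CPM in BLANK (-0.34 ± 0.03). DHCR7, of the last step of cholesterol synthesis, was lower as well (-0.52 ± 0.04). ACLY and FDPS did not pass (0.01 ± 0.03 and 0.05 ± 0.04).

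Genes of energy metabolism and translation differed little. Of 26 glycolysis and hypoxia genes 8 were higher, 3 lower and 15 did not pass (median 0.07), among them GAPDH (0.22 ± 0.02), EGLN3, an oxygen-sensing hydroxylase (0.72 ± 0.07), and CA9, a hypoxia marker, which was lower (-0.23 ± 0.05), and without DOC replicate 3 there were 5 lower. Nuclear genes of the respiratory chain gave 2 higher, 10 lower and 18 not passing of 30 (median -0.06), led by NDUFB3 (-0.32 ± 0.09) and ATP5F1A (-0.29 ± 0.03), and 4 were lower without AgNPs replicate 1 and 6 without replicate 3. Cytosolic ribosomal proteins gave 12 of 34 higher and 22 not passing (median 0.10). Without DOC replicate 1, 27 were higher. RPLP0 averaged 1199 ± 6.54 CPM after AgNPs, 1057 ± 41.4 CPM after DOC and 1220.1 ± 26.0 CPM in BLANK (0.18 ± 0.03), so the DOC group was the lower one. Of 15 SRF and YAP targets 7 were higher, 3 lower and 5 did not pass (median 0.11), with AMOTL2 at 0.78 ± 0.05 and AJUBA at 0.65 ± 0.04. None was lower without DOC replicate 2 or 3, and 1 without any single AgNPs library.

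**Figure D5:**
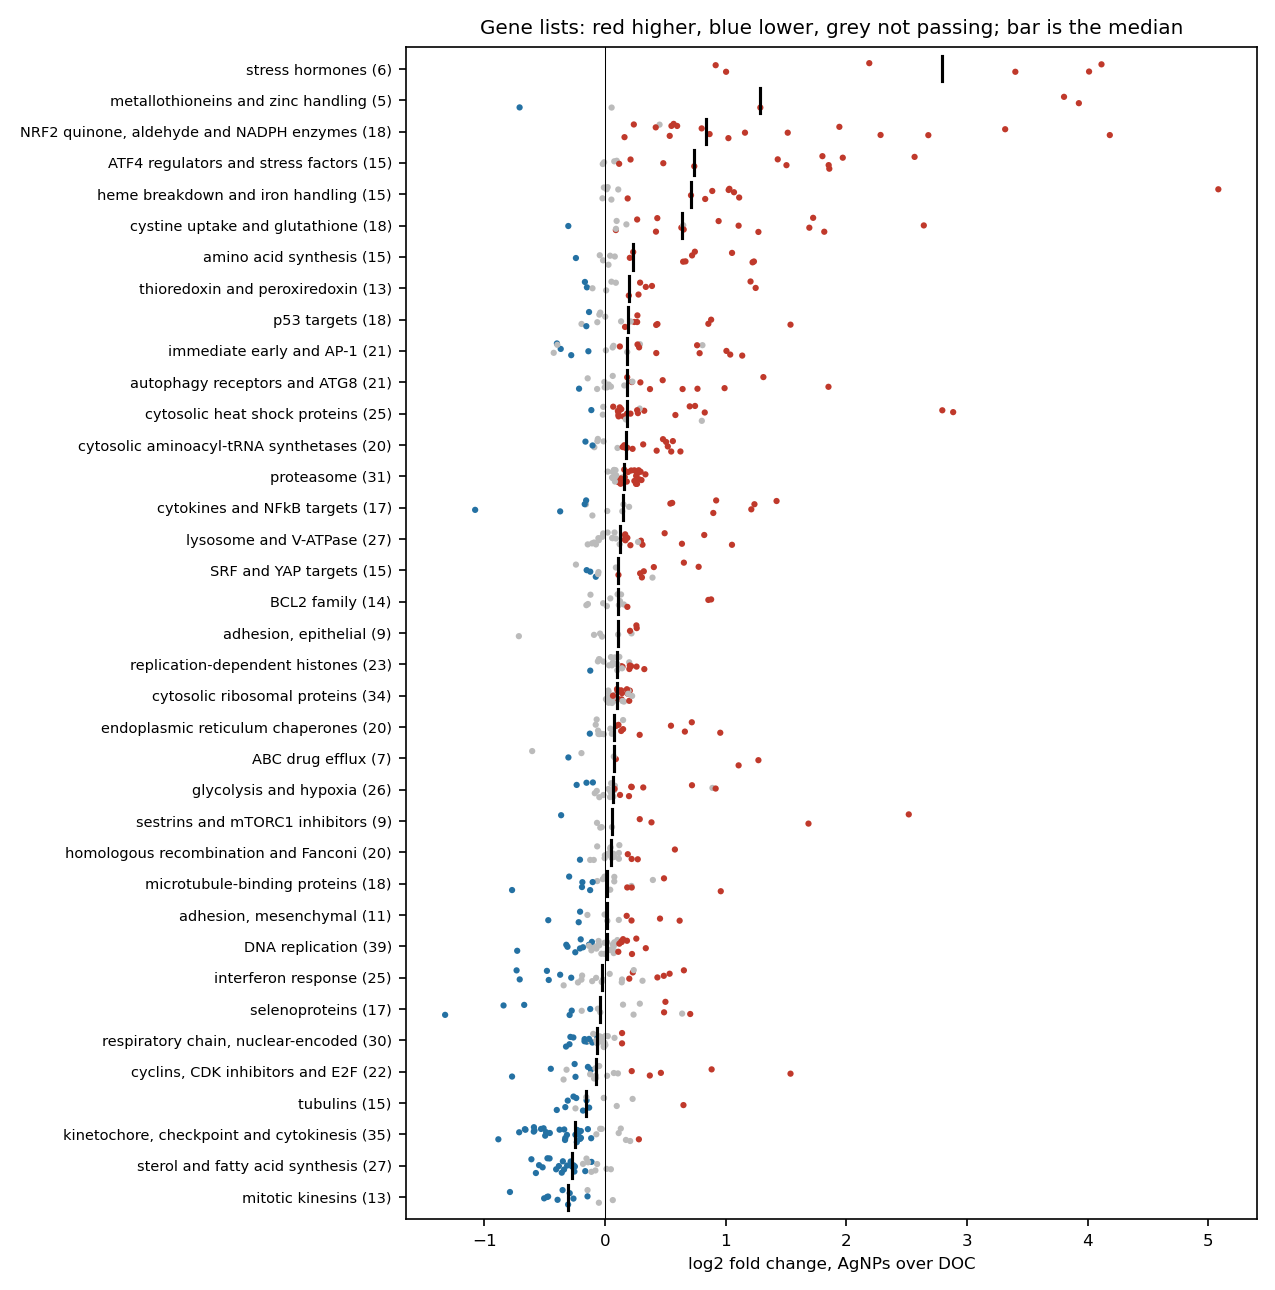
Each point is a tested gene of the list named on the left, with the number tested in brackets, placed at its log2 fold change of AgNPs over DOC, and the black bar is the list median. Red points were higher, blue lower and grey did not pass an adjusted p of 0.05. GPX2 is left out of the selenoproteins because it had no DOC counts. Stress hormones stand highest with a median of 2.80, and mitotic kinesins lowest with -0.30.

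KRT8 and KRT18 were higher after AgNPs (0.26 ± 0.04 and 0.26 ± 0.04), as were ITGA5, an integrin, and CDH2, N-cadherin (0.62 ± 0.04 and 0.22 ± 0.04), while VIM averaged 797 ± 9.63 CPM after AgNPs and 798 ± 19.9 CPM after DOC and did not pass. Epithelial adhesion genes gave 3 of 9 higher and 6 not passing, and mesenchymal ones 4 higher, 3 lower and 4 not passing of 11, of which none was lower without AgNPs replicate 2 and 1 without AgNPs replicate 3 or DOC replicate 1. Of 6 tested fibroblast markers 3 were lower after AgNPs, and their summed level ran from 96.2 to 108 CPM after AgNPs, against 116 to 131 CPM after DOC. COL1A2, a chain of type I collagen, averaged 68.3 ± 5.25 CPM after AgNPs and 83.8 ± 3.80 CPM after DOC (-0.29 ± 0.05). COL3A1 was highest in DOC replicate 1 (0.601, 0.761 and 0.536 CPM after AgNPs and 2.61, 1.13 and 0.921 CPM after DOC) and lost its call without that library (adjusted p = 0.205) or without AgNPs replicate 1 or 3 (0.0673 and 0.0787). FAP, a surface protease of fibroblasts, had 0.676, 0.380 and 0.613 CPM after AgNPs, against 1.44, 0.875 and 1.07 CPM after DOC (-1.01 ± 0.38, adjusted p = 0.0481), and kept its call only without DOC replicate 2 when single libraries were left out (adjusted p from 0.0670 to 0.205 without each of the others). With AgNPs replicate 1, AgNPs replicate 3 or DOC replicate 1 left out, 1 fibroblast marker was lower. DCN and LUM, which define fibroblasts, had 2 and 5 counts in the 12 libraries together. PTPRC had 6 counts, CDH5 53 and VWF 35. Of 2 tested neuroendocrine markers ENO2, also a glycolytic enzyme, was higher (0.22 ± 0.06). None of 3 tested endothelial markers and none of 2 luminal markers passed. The endothelial adhesion gene PECAM1 stood close to the threshold (-0.51 ± 0.20, adjusted p = 0.0537) and was lower without AgNPs replicate 2 or DOC replicate 3 (adjusted p = 0.0409 and 0.0418), on RefSeq rows only (0.0289), with limma-trend (0.0468) and with library size only (0.0456). Of the immune markers 1 of 3 was lower, the lysosomal CD68 (-0.21 ± 0.06), which did not pass without AgNPs replicate 3 (adjusted p = 0.123). The part of other cells in the results was not tested.

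Classes of RNA did not fall evenly on the sides. Of 13056 protein-coding genes 18.4% were higher and 14% lower after AgNPs, whereas of 3178 genes absent from the RefSeq annotation 3.49% were higher and 7.52% lower, with a median of -0.10. Other RefSeq genes, 3752 in number, lay between with 5.94% higher and 8.42% lower. The share of counts on RefSeq rows was 85.7 ± 0.347% after AgNPs and 84.8 ± 0.405% after DOC (SD, n = 3). Nuclear-retained RNAs, whose level can follow RNA quality, gave 2 higher and 1 lower: NEAT1, the scaffold of paraspeckles, had 4560.2, 4584 and 4497 CPM after AgNPs, against 3071, 3289 and 3340.0 CPM after DOC (0.49 ± 0.03), and KCNQ1OT1 was lower (-0.11 ± 0.03), a call lost without AgNPs replicate 2 (adjusted p = 0.0572). MALAT1 was also higher (0.24 ± 0.02), but only 0.218% of its counts lie on RefSeq rows, and on those alone it did not pass (0.23, adjusted p = 0.501). The part of these RNA classes and of depth in the results above was not tested beyond the equal-depth and RefSeq-only counts given below.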

How the data were processed

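RNA-seq libraries of PC3 cells were compared, 3 per group. Per the labels' protocols, RNA was extracted with TRIzol and libraries were made with a BGI dual-mode mRNA kit. The submitters' processing notes name HISAT2, Bowtie2 2.2.5, RSEM and GRCh38 without their roles. The deposited values used are the authors' expected counts per transcript, estimated and not whole. From them, 177700 linear rows were summed into 43613 genes and rounded. The 44096 circular rows, 12 expression columns and 10 mean columns were not used.

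edgeR 4.0.16 (R 4.3.3) fitted all 12 libraries (filterByExpr, TMM, robust quasi-likelihood, 8 residual degrees of freedom), and AgNPs minus DOC was tested with Benjamini-Hochberg adjustment over 19986 genes, called at an adjusted p of 0.05. CPM uses TMM library sizes. The script was tested on simulated data. Linear counts per library ran from 13049868 to 13362290 in AgNPs and 18603100 to 19421873 in DOC. Alternatives were DESeq2 1.42.0, limma 3.58.1 (limma-trend), other scaling, filters, depth, rows and libraries.

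Named genes were first the 15 called furthest each way whose average log2 CPM was not below 1 and whose groups did not overlap. These also needed at least 50% of counts on RefSeq rows and a symbol that was not a clone name or a LOC or LINC number. Added to them were the 5 most expressed each way at 1.5-fold or more and members of the 43 gene lists. Lists of up to 12 tested members gave every one. Longer lists gave the 6 with the smallest adjusted p and the 3 furthest against the list median. Another 16 genes were kept whatever their result. Some of the genes so named are not reported here. Members and lists were chosen with earlier results of these data known. Promoters come from RefSeq (GRCh38.p14), and 264 of 331 named genes matched.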

Additional observations from a re-analysis of the deposited data

How the results depend on the processing

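Calls between AgNPs and DOC ranged from 4109 to 5333 when each library was left out in turn, with 2359 to 2794 genes higher and 1742 to 2539 lower, and from 3725 (DESeq2) to 5162 under the other 10 settings, against 5120 in the fit reported. The count at least 2-fold higher stayed between 192 and 287, against 269. The count at least 2-fold lower depended on weakly expressed genes: against 121, it was 37 with DESeq2, 70 with a filter of 1 CPM in 3 libraries, 77 with counts thinned to equal depth and 60 on RefSeq rows only, and 83 to 151 with a library left out. Its full range under the other 10 settings was 37 to 173. The cause was not tested. Without scaling beyond library size, an alternative chosen after seeing the data, 48.2% of calls were higher, against 53.5%. Same-numbered libraries showed no sign of pairing (correlations of -0.04, -0.08 and -0.01), though 3 libraries per group cannot show that cultures were unpaired. The fit with the replicate number as a block made 4966 calls, of which 4911 were shared in the same direction, 95.9% of the 5120. DESeq2 kept 72.2% of the 5120 calls in the same direction, and fits with a library left out kept 76.4% to 87.6%. On RefSeq rows only, 80.4% were kept and 2 calls were opposite.

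Of 331 named genes, 278 kept their direction and side of the threshold in every one of the 16 alternatives that tested them, which for some weakly expressed genes were fewer, and 39 lost a call in at least 1. CHORDC1 turned round on RefSeq rows only (0.70, adjusted p = 3.35e-06). The shallower AgNPs libraries limit what can be called among genes with few counts.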
